A study of Oryzias latipes with 18 samples.

Results

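Chromosome 8 of the medaka held 5593 of the 149539 accessible elements that the study listed for embryogenesis, and these were taken by the chromosome named for each element. The other 23 chromosomes held 138687 elements, and 5259 lay on unplaced scaffolds. The study profiled chromatin accessibility by ATAC-seq, in which a transposase cuts and tags open DNA, in whole embryos of 9 stages (11, 15, 19, 25, 29, 32, 36, 38 and 40), with 2 replicates per stage and 18 libraries in all. All embryos were offspring of the strains d-rR-Tg(olvas-GFP) and Qurt, lost their chorion and yolk, and no treatment is named in the labels, so every tissue of the embryo is mixed in each library. The list pools all stages, so an element can be described by its position, width, score and number of merged peaks, but not by its course over development or its replicate error. Depth per library is therefore unknown, comparisons below are descriptions without a test, and 95% Wilson intervals cover counting error only.

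Accessible elements are short stretches of DNA that are free of nucleosomes. Those at the start of a gene usually mark its promoter, which is open in many tissues and stages, while those inside introns or far from any gene often mark enhancers, which switch a gene on in particular cells and times. Vertebrate genes of housekeeping function tend to sit close together with little regulatory DNA around them, whereas developmental regulators such as the Hox and Sox genes are often surrounded by many elements.

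Chromosome 8 was the most gene-dense chromosome of the 24 in the RefSeq annotation of assembly ASM223467v1. It carried 42.3 protein-coding genes per Mb, against 23.6 to 34.7 and a median of 30.8 on the other 23 chromosomes, over a length of 26.2 Mb. Its protein-coding genes were also the shortest, with a median length of 7.52 kb, against a median of 9.39 kb over the other chromosomes, and the space between neighbouring genes was a median of 2.35 kb, against 3.16 kb. Elements did not rise in the same proportion. There were 213.5 elements per Mb, the sixth density of 24, against a median of 196.6 and a range of 142.3 to 218.8 on the other chromosomes, and thus 5.04 elements per protein-coding gene, the lowest value of the 24 (5.16 to 8.43 elsewhere). The chromosome was taken up as a gene-dense one, so its rank in gene density is no separate result. The ratio divides by that same gene count and is not independent of it.

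The elements of chromosome 8 were close to genes. Of the 5593 elements, 1703 (30.4%, 95% interval 29.3 to 31.7%) were gene-end elements, with a midpoint no more than 1 kb from a gene's first or last base, against 23.1% on the other 23 chromosomes together, and no other chromosome exceeded 26.9%. The annotation used gives no strand for these genes, so promoters and 3′ ends are counted together. Elements within 5 kb of a gene but outside it, called proximal here, numbered 562 (10.05%, against 7.78% elsewhere). Gene bodies held 2653 (47.4%, against 51.6% elsewhere), and 675 (12.1%, 11.2 to 12.9%) were distal, more than 5 kb from every gene, against 17.5% elsewhere and 12.5 to 24.1% on single chromosomes. With more genes per Mb, more of the sequence itself can lie near a gene end and less of it far from genes. The share of sequence in each place was not counted.

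Counted per gene, the difference lay inside and far from genes rather than at their ends. Chromosome 8 had 1.54 gene-end elements per protein-coding gene, against a median of 1.56 over the other chromosomes, and 0.507 proximal elements, against 0.521. Gene bodies contributed 2.39 elements per protein-coding gene, against a median of 3.47, and distal DNA 0.609, against 1.11. Both of the last values were the lowest of the 24 chromosomes. Counted per Mb the picture differed. Gene-body elements were at 101.3 per Mb, in position 13 of 24, against a median of 102.6. Distal elements were at 25.8, in position 21, against 34.5. Gene-end elements (65.0, against 46.3) and proximal ones (21.5, against 15.3) were the densest of the 24. Genes here were also shorter, at a median of 7.52 kb against 9.39 kb. An element within 1 kb of an end was found for 913 of 1109 protein-coding genes (82.3%, 79.97 to 84.5%), next to 82.5% of those on the other chromosomes.

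**Figure D1:**
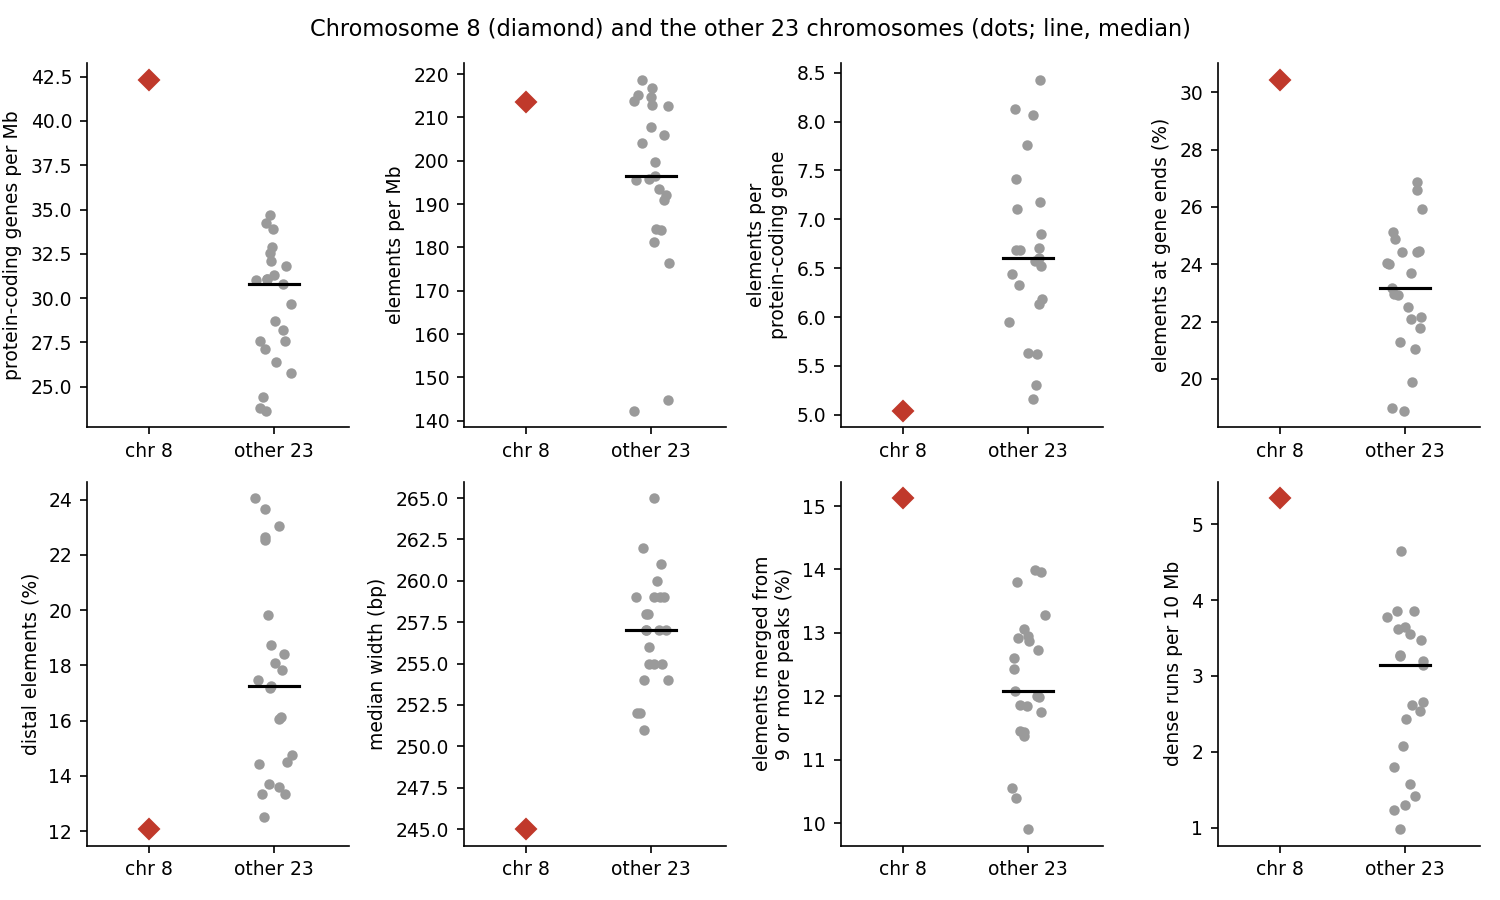
Gene density, element density, elements per protein-coding gene, share at gene ends, share distal, median width, share merged from 9 or more peaks and dense runs per 10 Mb are plotted on the y axes for chromosome 8 (diamond) and for each of the other 23 chromosomes (dots, with their median as a line); axes do not start at 0. Chromosome 8 lay outside the range of the other chromosomes in 7 of the 8 panels, and inside it for elements per Mb. It was taken up as a gene-dense chromosome, so the panels of gene density and of elements per gene are not independent.

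Many elements of chromosome 8 were merged from as many peaks as there were stages. Peaks had been called per stage and then merged over stages, so an element merged from 9 peaks may hold 1 from each stage, although the list does not name the stages. On chromosome 8, 846 elements (15.1%, 14.2 to 16.1%) were merged from 9 or more peaks, against 12.3% elsewhere and 9.90 to 13.996% on single chromosomes. Most of them, 717, were merged from exactly 9, and elements of 10 or more peaks made up 2.31%, next to a median of 2.35% over the other chromosomes. Elements with a single peak numbered 1505 (26.9%, against 27.7% elsewhere).

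Place moved with this share. At gene ends 567 of 1703 elements (33.3%) were merged from 9 or more peaks, against 33.2% elsewhere, which put chromosome 8 in position 14 of 24. Proximal elements reached 8.72% and distal ones 4%, inside the range of the other chromosomes. In gene bodies 203 of 2653 elements (7.65%, 6.70 to 8.73%) were merged from 9 or more peaks, against 6.23% elsewhere and 5.23 to 7.20% on single chromosomes. When every chromosome was given the places of all elements, the share was 13.1% on chromosome 8, in position 4 of 24, against a median of 12.3%.

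**Figure D2:**
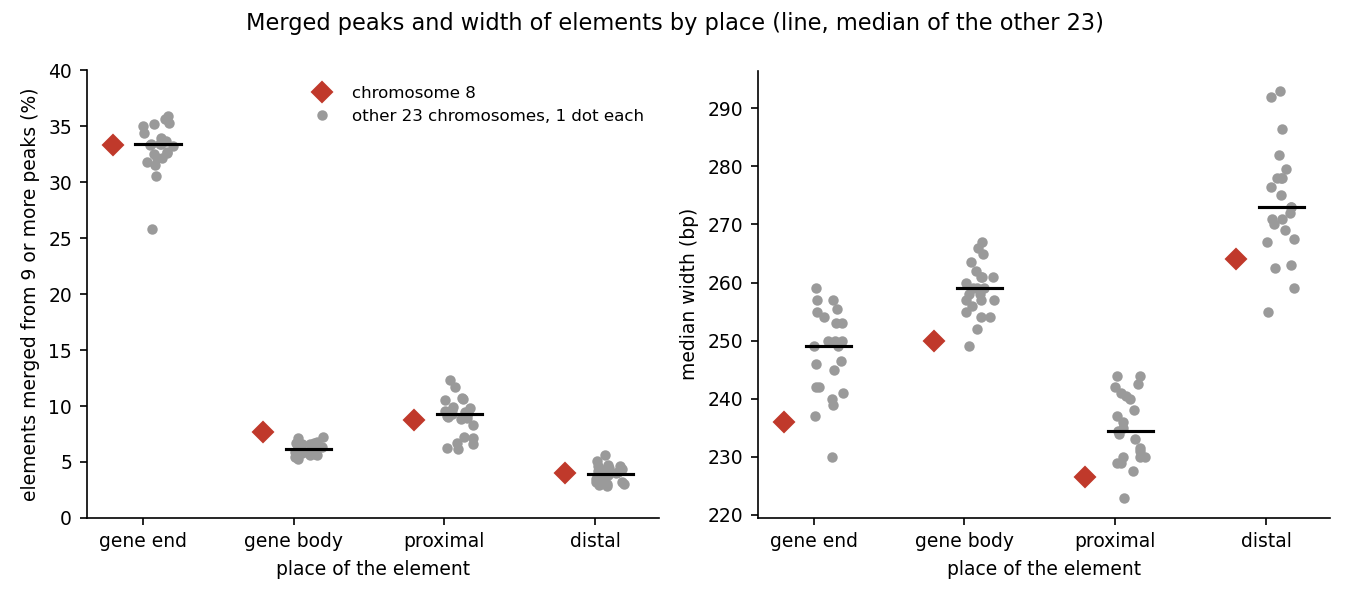
Share of elements merged from 9 or more peaks (left, y axis in percent) and median element width (right, y axis in bp, not starting at 0) by place, for chromosome 8 (diamond) and each of the other 23 chromosomes (dots, line at their median). On chromosome 8, 33.3% of gene-end elements and 4% of distal elements were merged from 9 or more peaks.

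Elements of chromosome 8 were narrow. Their median width was 245 bp, the lowest of the 24 chromosomes, against 251 to 265 bp on the others, with quartiles of 175 and 357 bp against 179 and 376 bp. By place, the medians were 236 bp at gene ends, 250 bp in gene bodies, 226.5 bp among proximal elements and 264 bp among distal ones, and each was below the median of the other chromosomes. Only 25 elements were 1000 bp or wider (0.447%, against 0.542% elsewhere). Scores, read as −log10 q from the peak caller, had a median of 32.2 on chromosome 8, against 31.1 over the other chromosomes together. The highest 10% of scores over all chromosomes held 661 elements of chromosome 8 (11.8%, 11.0 to 12.7%, against 9.93% elsewhere), the highest share of the 24. By place the median scores were close to those elsewhere at gene ends (48.7, against 49.2), in gene bodies (27.9, against 27.5) and among distal elements (27.1, against 27.9). Only proximal elements stood somewhat higher (33.5, against 30.4). The share in the highest 10% was not split by place.

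The strongest elements lay at the ends of genes with varied roles. The highest score of the 24 chromosomes, 987, belonged to an element of 448 bp at 5313155 to 5313602, at the end of arhgap23, which encodes a GTPase-activating protein. It was followed by elements at the ends of gpr146, a G protein-coupled receptor (731), mapk8ip3, a scaffold of JNK signalling and axonal transport (724), and srebf2, the regulator of sterol synthesis (701). Elements at the ends of LOC101175535 (689), st8sia6, a sialyltransferase (671), LOC101168043 (663), LOC101158611 (656), LOC101175404 (650) and LOC101168623 (641) completed the first 10. All 10 were gene-end elements, and all were merged from 9 peaks apart from that of LOC101175535, which was merged from 19. Score went with peaks and place on the other chromosomes too. There the median score was 151 for elements of 9 peaks and 13.7 for single peaks, and 49.2 at gene ends and 27.5 in gene bodies. Equally strong elements of those chromosomes were not counted by place or peaks.

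Away from gene ends the strongest elements were somewhat weaker. In gene bodies the highest scores were 627 in LOC101155770, 587 in igf2bp1, which encodes an mRNA-binding protein, and 564 in hlf, which encodes a PAR bZIP factor. The highest among distal elements was 495, 10978 bp from LOC105354657. These 4 elements were also merged from 9 peaks, and were named after their values had been seen. The widest element, at 25427345 to 25429221, spanned 1877 bp at the end of LOC101156175 but scored only 51.5 with 12 peaks. The other wide ones were 1425 bp in LOC101156498 and 1240 bp at pla2g4c, which encodes a phospholipase. Most peaks were merged at LOC101165555 (20 peaks, 842 bp, score 398), LOC101175535 (19) and LOC105354632 (19, score 77.7).

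The strongest proximal element stood next to a miRNA cluster. It spanned 352 bp at 13289641 to 13289992, scored 505 and was merged from 9 peaks. The nearest RefSeq gene was mir23a-1, which lies beside mir27c and mir24a-2, and the start of IGDB25386, a gene on the study's lncRNA list, lay inside the element. This lncRNA gene runs on the reverse strand from 13289777 to 13286062 and ends 802 bp before mir23a-1. This element too was named after its values had been seen.

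Along the chromosome, elements per 1 Mb window ranged from 77 to 331 over 26 windows, with a median of 205, against 14 to 382 and a median of 196 over 707 windows of the other chromosomes. Of the 26 windows, 5 were in the highest 10% of all windows (19.2%, 8.51 to 37.9%, against 9.76% elsewhere). In the lowest 10% were 2 (7.69%, 2.14 to 24.1%, against 10.3% elsewhere). The top 3 lay side by side, with 331 elements at 10 to 11 Mb, where sox9 and sox8 are found, 328 at 9 to 10 Mb and 306 at 11 to 12 Mb. The lowest were 77 at 16 to 17 Mb, 111 at 17 to 18 Mb and 119 at 14 to 15 Mb.

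The windows fell into broad stretches, whose borders were chosen after the values had been seen. From 5 to 13 Mb there were 279.5 elements and 48.2 protein-coding genes per Mb, or 5.79 elements per gene, and 14.8% of elements were distal. Single windows of this stretch held 158, at 7 to 8 Mb, to 331 elements. From 13 to 19 Mb there were 134.3 elements and 31.7 protein-coding genes per Mb, or 4.24 elements per gene, with 8.81% distal. The first 5 Mb held 200.8 elements per Mb at 46.2 protein-coding genes per Mb, and the last 7 windows 217.7 at 42.7. Median scores were 31.6, 32.9, 29.5 and 33.3 from the first stretch to the last, lowest where elements were fewest. The medians of the other chromosomes ran from 28.6 to 32.8. Over the 26 windows, median score correlated with elements per Mb (Spearman coefficient 0.57, and 0.50 over windows of the other chromosomes).

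Elements followed genes in part from window to window. Over the 26 windows of chromosome 8, which share the same libraries, elements correlated with protein-coding genes with a Pearson coefficient of 0.59 and a Spearman coefficient of 0.52, next to 0.44 and 0.45 over the 707 windows of the other chromosomes. The first window had the most protein-coding genes, 68, and 226 elements, whereas the window at 10 to 11 Mb had 45 genes and 331 elements. The share merged from 9 or more peaks showed no such relation to element number (Spearman coefficient 0.02), but correlated with protein-coding genes (Spearman coefficient 0.58, and 0.68 elsewhere). It was highest at 25 to 26 Mb (25.7%), 19 to 20 Mb (24.7%) and 0 to 1 Mb (21.7%), and lowest at 1 to 2 Mb (7.84%), where rbfox3 and LOC105354499 span much of the window.

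**Figure D3:**
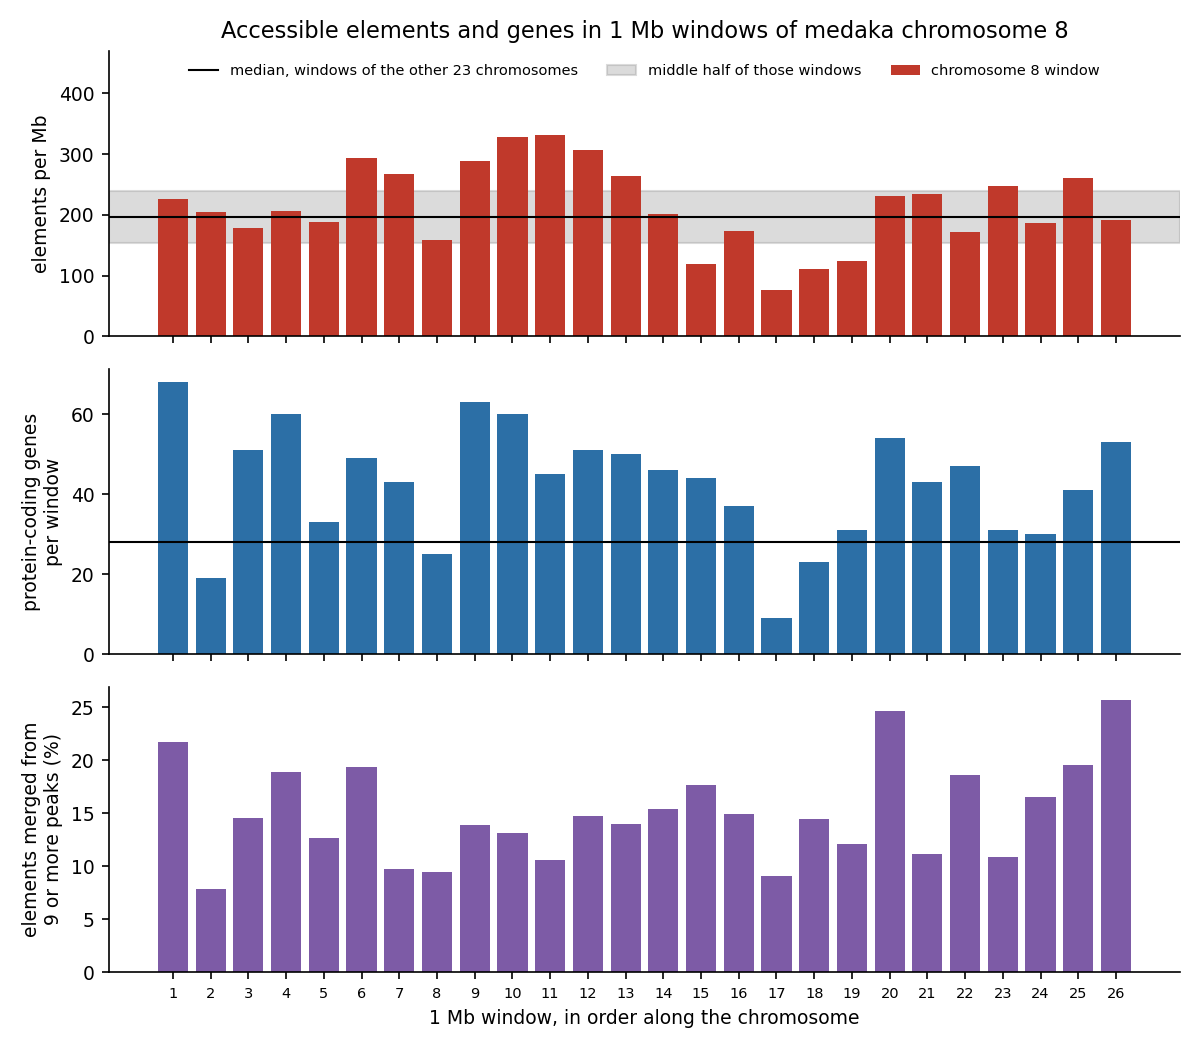
Elements per Mb, protein-coding genes and the percentage of elements merged from 9 or more peaks (y axes) in each of the 26 windows of 1 Mb of chromosome 8, numbered along the x axis. The line marks the median of windows on the other 23 chromosomes (196 elements, 28 genes) and the band their quartiles, 154 and 240; windows 10 to 12 reach 306 to 331 and window 17 falls to 77.

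Chromosome 8 had 31 gaps of 50 kb or more between neighbouring elements, or 11.8 per 10 Mb, in position 6 of 24, against a median of 8.40 and a range of 3.92 to 22.1 on the other chromosomes. They covered 2.76 Mb, 10.5% of its length. These gaps were not empty of annotated genes. The midpoints of 128 RefSeq genes lay inside them, 46.3 per Mb, against 51.1 genes per Mb over the whole chromosome, and gaps of the other chromosomes held 37.1 per Mb.

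The longest gap overlapped segments of antigen receptor genes. It spanned 274.0 kb, from 14778969 to 15052966, and overlapped 16 genes, of which 10 were variable segments and 2 constant regions of antigen receptor genes by their RefSeq type. Such segments are joined by DNA recombination in lymphocytes. All 17 variable segments and 3 constant regions of chromosome 8 lay between 14656684 and 15169237. A single weak element, with a score of 9.95, separated this gap from another of 126.0 kb, from 15053063 to 15179021, with 8 genes. The other long gaps were 223.6 kb from 16495201 to 16718772, with LOC111947711 and part of atf7ip2, 208.1 kb from 13729558 to 13937607, with 7 protein-coding genes, and 122.3 kb from 23642014 to 23764342, inside LOC101167294. With only elements of a score of at least 20 the count was 18.3 per 10 Mb, close to the median of 18.0 elsewhere.

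Elements also stood in tight groups. Chromosome 8 had 14 runs of at least 5 elements with no more than 500 bp between neighbours, or 5.34 per 10 Mb, the highest of the 24 chromosomes (0.982 to 4.65 elsewhere). The runs held 70 elements, 1.25% of the chromosome's elements, against 0.765% elsewhere. Each run had exactly 5 elements, so with a minimum of 6 chromosome 8 had 0 runs per 10 Mb, against a median of 0.641. It kept first place with a minimum of 4 (21.76 per 10 Mb, up to 17.39 elsewhere) and with a spacing of 1000 bp (24.05, up to 16.48 elsewhere). It fell to position 4 with a spacing of 300 bp (1.15 per 10 Mb, up to 1.61 elsewhere) and with a score of at least 20 (1.53, up to 2.52 elsewhere). Within runs 18 of 70 elements were merged from 9 or more peaks (25.7%), against 15.0% of those outside runs on chromosome 8 and 17.7% of those in runs elsewhere. Gene-end elements made up 42.9% of those in runs and 30.3% of those outside on chromosome 8, and 40.7% of those in runs elsewhere.

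The runs, all of the same size, lay at genes of different kinds. In the run at ubtf, which encodes a factor of ribosomal RNA transcription, 4 of 5 elements were merged from 9 peaks, with scores of 29.0 to 207. The run at actb, the beta-actin gene, spanned 3419 bp and had 1 element of score 444 with 9 peaks among elements of 1 to 6 peaks. The run at lfng, which encodes a glycosyltransferase that modifies Notch, had scores of 30.5 to 290 and 5 to 9 peaks. Runs at znf652, hdac5, gmip, rbfox3 and cramp1 with jpt2 were also found. The run inside rbfox3 held elements of 1 to 8 peaks, and that inside gmip elements of 1 to 5 peaks. A run at 24179872 to 24182976 lay in the homeobox cluster, beside the start of hoxb8b. The remaining runs lay at genes known only by a LOC number and are not described.

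By nearest gene, long genes gathered the most elements. rbfox3, which encodes the neuronal splicing regulator known as NeuN and spans 293.4 kb, had 89 elements, 78 of them in its body. LOC101164563 had 59 over 175.2 kb, the lncRNA gene LOC105354499 had 53 over 280.7 kb, LOC105354559 had 44 over 45.1 kb and LOC101172334 (61.4 kb) and cep112 had 39 each. The median protein-coding gene of chromosome 8 had 3 elements, as elsewhere, and the mean was 4.66 ± 6.31 (SD, n = 1109 genes), against 6.07 ± 9.11 (SD, n = 20949 genes) elsewhere.

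The gene with the most distal elements was sox9, which directs cartilage and gonad development in vertebrates. It is only 2.37 kb long but had 36 assigned elements, 29 of the chromosome's 675 distal ones among them. Its neighbour rnf213, which encodes a ubiquitin ligase, had 17 distal elements, LOC101170021 had 15, and LOC101155352 and LOC101170520 had 13 each. LOC101170520 is the match of the TF gene named HOXB1.

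The stretch between rnf213 and sstr2, the protein-coding neighbours of sox9, spanned 255.4 kb and held 107 elements, or 419.0 per Mb. Among them 7 (6.54%) were merged from 9 or more peaks and 33 (30.8%) from a single peak, against 15.1% and 26.9% over chromosome 8. Of the 107 elements 63 were distal, a place where 4% were merged from 9 or more peaks and 30.7% from a single peak over the chromosome. The element over the sox9 start scored 67.2 with 6 peaks, and an element centred at -0.645 kb, just before it, scored 173 with 9 peaks. The strongest of the stretch, 43.9 kb after the start, scored 472 with 8 peaks, and another 18.4 kb after it scored 370 with 8 peaks. By nearest gene, the former was proximal to LOC105354559 and the latter was a distal element of sox9. The lncRNA gene LOC105354559 lies in the same stretch, and IGDB25283, the gene of the lncRNA list with the most elements within 50 kb, starts 56.1 kb from the sox9 start.

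The study's list of TF genes had 69 genes on chromosome 8, or 2.63 per Mb, against a median of 1.86 elsewhere. Within 50 kb of the start of a gene lay a median of 29 elements, with a lowest value of 7 and a highest of 55, and the medians of the other chromosomes ran from 6 to 30. Of the 69 genes 38 had another TF gene start within 100 kb and so shared elements with it. An element lay within 1 kb of the start of 63 genes (91.3%, 82.3 to 96.0%, against 87.4% elsewhere). It was merged from 9 or more peaks at 31 genes (44.9%, 33.8 to 56.6%, against 45.8% elsewhere).

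The homeobox cluster was the densest neighbourhood of the list. Hox genes, which give the trunk its pattern from head to tail, lie here with eve1, a relative of the fly gene even-skipped, in 188.2 kb from 24108922 to 24297141. This stretch held 80 elements, or 425.0 per Mb, of which 5 (6.25%) were merged from 9 or more peaks and 18 (22.5%) from a single peak, against 15.1% and 26.9% over chromosome 8. Of the 80 elements 47 lay in gene bodies, where these shares were 7.65% and 31.2% over the chromosome. IGDB25672 had 55 elements within 50 kb, the most of the chromosome's TF genes. HOXB5 had 51, hoxb4a 50, hoxb2a 48, IGDB09749 46 and HOXB1 43. Toward the other end of the cluster the counts were 36 at hoxb8b, 28 at hoxb9a, 26 at hoxb13a and 21 at eve1. These windows overlap, so the same elements were counted for several genes.

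None of the 10 cluster genes had an element of 9 or more peaks as the nearest to its start. An element of 9 peaks with a score of 163, at 24221686 to 24222189, did lie within 1 kb of the HOXB5 start. At the starts of the genes the elements scored 227 with 5 peaks for eve1, 75.1 with 7 for hoxb4a, 48.2 with 8 for hoxb2a, 31.0 with 2 for HOXB1, 24.8 with 4 for hoxb13a and 22.5 with 3 for HOXB5. The nearest element lay 131 bp away from the start of IGDB25672, 499 bp from hoxb8b, 578 bp from hoxb9a and 1529 bp from IGDB09749. That of hoxb9a was a single peak with a score of 9.02. The elements nearest the starts of hoxb4a, hoxb2a, HOXB5, IGDB25672 and IGDB09749 were placed in gene bodies. The models of these genes overlap their RefSeq matches only in part (0.33 to 0.75), so these starts may be internal. The homeobox genes of the other chromosomes, in clusters or not, had a start element of 9 or more peaks in 32.2% of 211 cases. Hox clusters of those chromosomes were not counted apart.

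**Figure D4:**
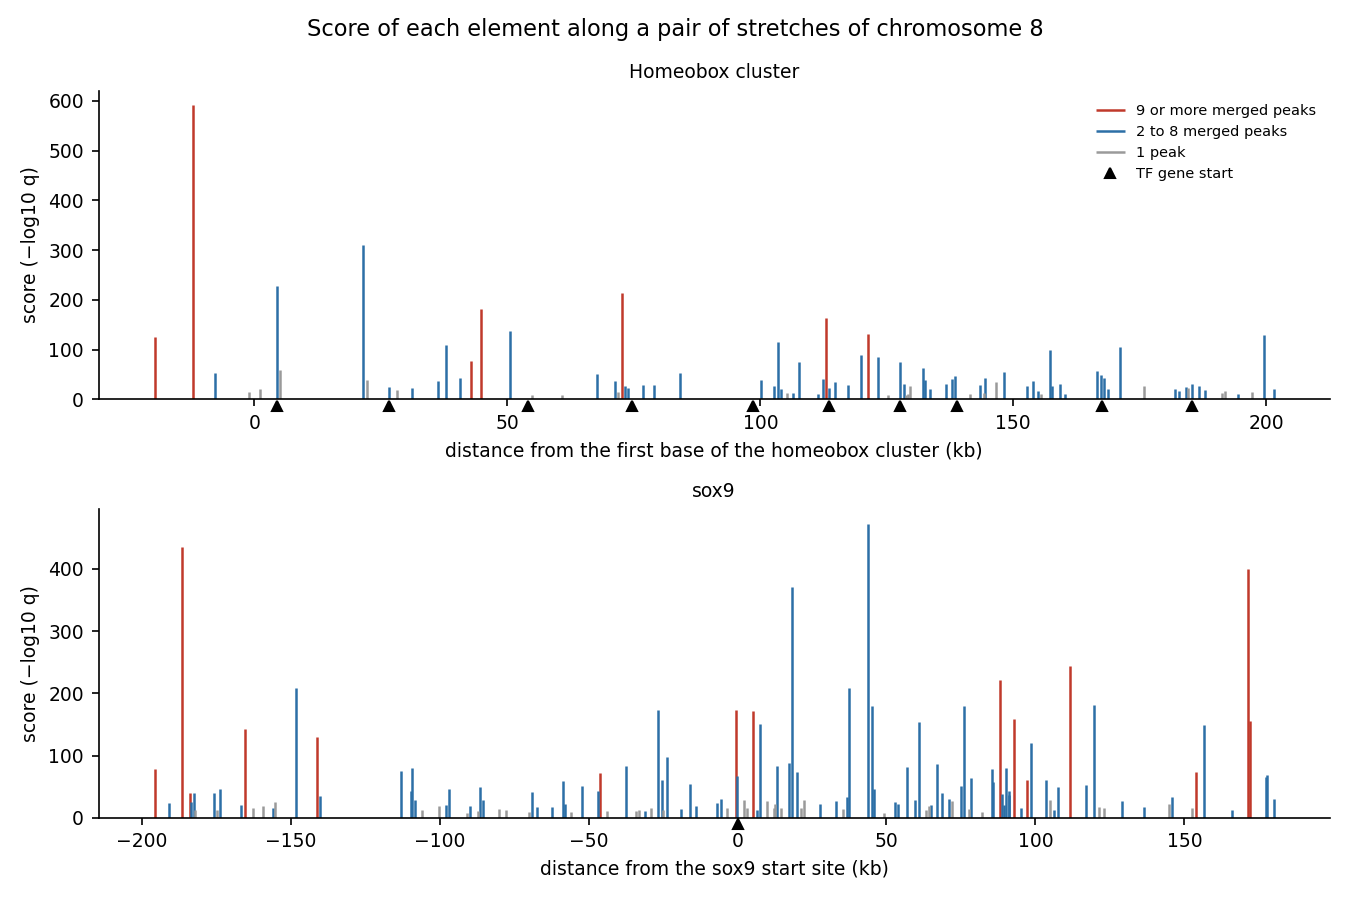
Score (−log10 q, y axis) of each element against its distance in kb from the first base of the homeobox cluster (top) and from the sox9 start (bottom), coloured by the number of merged peaks, with TF gene starts as triangles. Inside the cluster the highest score was 310, and around sox9 it was 472, 43.9 kb after the start, at an element proximal to LOC105354559.

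Outside the cluster, homeobox genes had 13 to 44 elements within 50 kb. pbx4, which encodes a partner of Hox proteins, had 39, and an element of 14 peaks with a score of 184 at its start. lmx1al had 44, with an element of 4 peaks (score 35.05) 366 bp from its start. uncx, which acts in somites, had 26 and a start element of 4 peaks (85.3). The model of uncx overlaps RefSeq uncx only in part (0.36). Dlx3, which acts in skin and skeleton, had only 13, but the element 86 bp from its start was merged from 10 peaks (85.0).

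Of the 6 HMG box genes, 4 had a start element of 9 or more peaks, next to 51.9% of 54 on the other chromosomes. These were ubtf (score 63.0, 9 peaks), sox10, the neural crest regulator (293, 9 peaks), hmgxb4 (322, 13 peaks) and IGDB25727 (90.9, 9 peaks). The other 2 were sox9 and sox8, whose start element scored 38.5 with 5 peaks. The model of ubtf overlaps RefSeq ubtf only in part (0.26). Its start element was placed in the gene body, so that start may be internal. Within 50 kb sox9 had 44 elements, sox8 29 and sox10 23, so that sox10 combined the strongest start element of these Sox genes with the lowest count around it.

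Of the 9 bZIP genes, 8 had a start element merged from 9 or more peaks. The bZIP genes of the other chromosomes reached 65.7% of 70. junbb, an AP-1 subunit, scored 440, ATF4, a factor of the integrated stress response, 234, mafk, a small Maf protein, 216 with 18 peaks, nfe2l1a 202, tefb 178 and hlfa 158. The exception was mafga, with 7 peaks and a score of 39.5. ATF4 had only 14 elements within 50 kb and hlfa had 40. The model of tefb overlaps its RefSeq match only in part (0.38). The model of hlfa overlaps RefSeq hlf only in part (0.14). RefSeq hlf continues past this start, so the start may be internal.

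Start elements ranged widely among the bHLH, STAT, RFX and Fork_head genes. srebf2 scored 701 and srebf1, which regulates fatty acid synthesis, 191, both with 9 peaks. stat3, which carries cytokine signals to the nucleus, scored 521 with 9 peaks, and its neighbour stat5a 195 with 13. RFX1 scored 540 with 9 peaks and foxk2 610 with 10. In contrast foxj1, the regulator of motile cilia, had an element of 88.7 with 6 peaks but 44 elements within 50 kb, and NEUROD2, a neuronal bHLH factor, one of 56.4 with 3 peaks and 36 elements within 50 kb. tfap4 (147) and the zf-C2H2 gene Glis2 (90.8) had start elements of 9 peaks and 40 elements within 50 kb each, in windows that overlap.

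The 16 zf-C2H2 genes, the largest family of the list here, had 16 to 40 elements within 50 kb and a start element of 9 or more peaks in 7 cases, next to 45.5% of the 462 members on other chromosomes. The median count of 27 stood beside 22 for those members. znf281a had a start element of 15 peaks (191), and e4f1 one of 8 peaks (209). The 2 nuclear receptor genes, of different families, each had a single weak peak near the start. On the other chromosomes 70.8% of 24 THR-like genes, the family of THRA, had a start element of 9 or more peaks. For SF-like genes, the family of nr5a5, this share was 33.3% of only 3 genes. THRA, the thyroid hormone receptor alpha, had 8 elements within 50 kb and a single peak with a score of 12.2 near its start. Its model in the study's list overlaps LOC101167294 only in part (0.13), and that RefSeq gene continues past this start through the 122.3 kb gap, so the start may be internal. The other, nr5a5, had 41 elements but a single peak of 18.0, 592 bp from its start. The fewest elements, 7 each, surrounded IGDB09651 and IGDB09652 of the SAND family, matched to LOC101163904 and LOC101164156. Next after THRA came Dlx3 and IGDB25727 with 13 each.

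**Figure D5:**
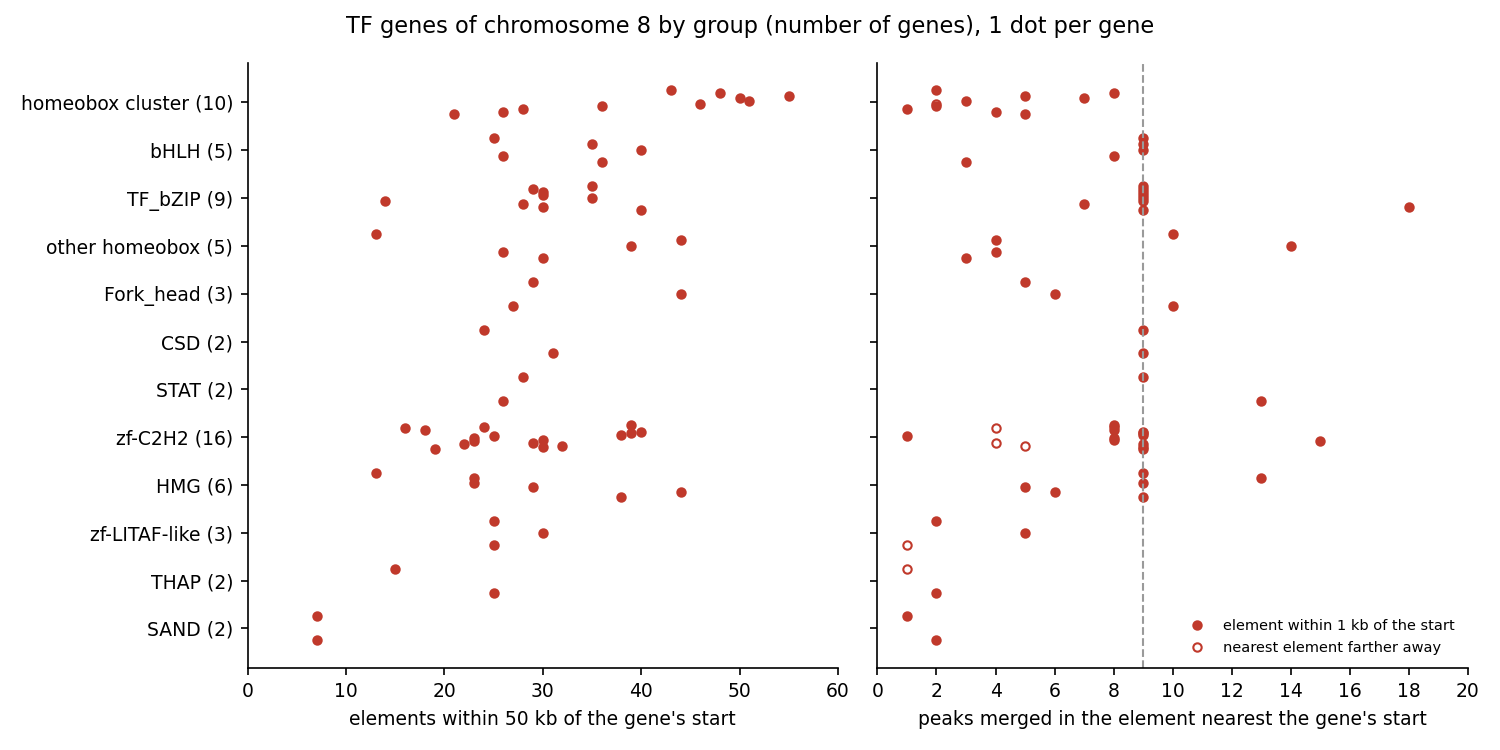
Elements within 50 kb of the start (left x axis) and peaks merged in the element nearest the start (right x axis, dashed line at 9) for each TF gene of chromosome 8, by group with the number of genes in parentheses; groups with 1 gene are not drawn. The homeobox cluster reaches 55 elements but no nearest element beyond 8 peaks, while 8 of 9 bZIP genes are at 9 or more.

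The study's lncRNA list had 67 genes on chromosome 8, or 2.56 per Mb, the highest density of the 24 chromosomes (0.918 to 1.74 elsewhere). A median of 27 elements lay within 50 kb of their starts, above the range of 15 to 26 of the other chromosomes, with a mean of 26.9 ± 13.2 (SD, n = 67 genes) against 22.7 ± 11.1 (SD, n = 988 genes). Of the 67 genes 30 had another lncRNA gene start of the list within 100 kb and so shared elements with it. With a window of 25 kb the median was 12, in position 5 of 24, beside a median of 11.5 elsewhere. It was in position 2 with a window of 100 kb and also with a score of at least 20. An element lay within 1 kb of the start of 29 of 67 lncRNA genes (43.3%, 32.1 to 55.2%, against 45.2% elsewhere), and it was merged from 9 or more peaks at 8 (11.9%, 6.18 to 21.8%, against 10.5% elsewhere).

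Among the 5 lncRNA genes with the most elements, IGDB25283, near sox9, had 52, with an element of 8 peaks (82.1) 724 bp from its start. IGDB25194 had 49, and so had IGDB25182, which lies at elavl3, a neuronal RNA-binding protein gene. IGDB25670 in the homeobox cluster, 7.22 kb from the start of HOXB5, and IGDB25142 at lfng had 48 each. The lowest count was 1, at IGDB25431, which starts inside the 274.0 kb gap with the antigen receptor segments.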

How the data were processed

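Chromatin accessibility was profiled at 9 stages of the medaka embryo, with 2 replicates each. Per the labels and the methods, the authors used Trimmomatic 0.36 for trimming and Bowtie2 2.3.4.1 for alignment, called peaks per stage with MACS2 2.1.2, and merged the peaks over stages. The deposited list gives each element's position, a score taken as −log10 q (all above 7) and a whole number read as the number of merged peaks. How the score of merged peaks was made is not given in the sources used here. The paper names the long-read medaka reference genome, without an assembly accession for this list.

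Elements were placed by midpoint against the RefSeq genes of ASM223467v1. Chromosome length was the last end of any element or gene. The TF and lncRNA genes of the study's lists brought their own starts. Of the 69 TF genes, 43 shared an end with a RefSeq gene within 50 bp (1 after a shift of 50 kb), and 49 starts lay inside an element (3 after that shift). TF genes took the study's name or, at an overlap of at least 0.25, the RefSeq symbol. Named were the elements, windows, gaps and genes with the extreme values and the TF genes by family. Runs, all of the same size, were named where they lay at or beside a gene with a symbol. The part of the genome, the lists and the rules were chosen with earlier results of these data known. No test was made. Functions were tested on simulated data. Python 3.11.15, NumPy 2.4.6, pandas 2.3.3, SciPy 1.17.1 and Matplotlib 3.10.9 were used. No sequences were analysed here.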

Additional observations from a re-analysis of the deposited data

How the results depend on the processing

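No paired analysis was possible because the list pools all replicates. Of 48 alternatives, of which 8 were chosen after seeing the data, 12 left the value on chromosome 8 within its interval or, for counts, within 1.5 times, 35 moved it further and 1 turned its direction against the other chromosomes. That 1 was the minimum of 6 elements for a run, with 0 runs per 10 Mb against a median of 0.641. Many alternatives redefine the measure itself, such as the length of a gap or the reach of a gene end. A moved value can then keep its place among the 24 chromosomes. Runs were 1.15 per 10 Mb at 300 bp, 24.1 at 1000 bp, 21.8 at 4 elements and 1.53 with a score of at least 20. Chromosome 8 was first of 24 at 1000 bp and at 4 elements. Gaps were 31.7 per 10 Mb at 30 kb, 3.05 at 100 kb and 18.3 with a score of at least 20, and the window median with that score was 147.5. The median width was 281 bp with that score, 181 bp for elements of 1 peak, 303 bp after merging elements closer than 500 bp (position 17 of 24 from the widest), and 236, 250, 226.5 and 264 bp by place. The median score was 13.9 for elements of 1 peak and 51.2 for those of at least the median width. The share merged from 9 or more peaks was 22.0% with a score of at least 20, 13.1% reweighted to the places of all elements and 12.8% for exactly 9, and in gene bodies 8.77% with gene ends of 500 bp and 11.9% with a score of at least 20. The share at gene ends was 21.1% at 500 bp, 42.4% at 2 kb, 28.6% with protein-coding genes only and 32.5% by overlap, always the highest of 24. The distal share was 15.9% at 3 kb, 6.97% at 10 kb and 15.6% with protein-coding genes only, where chromosome 8 was in positions 2, 1 and 4 from the lowest of 24. The median near TF genes was 15 at 25 kb, 54 at 100 kb and 22 with a score of at least 20, and near lncRNA genes 12, 51 and 18. The depth of the libraries was not known from the list.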
